A study of Mus musculus with 8 samples.

Results

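Myeloma-bearing bone marrow held 2 sorted populations of tumour-associated macrophages (TAM), and the comparison described here is between TAM that carried the green fluorescent protein (GFP) of the tumour, called in contact, and TAM that did not, called not in contact. The members are 2 libraries of each, 4 of the 8 samples, and every gene with at least 5 CPM in at least 2 of these 4 libraries, which gave 9860 of 47643 genes. CPM is a gene's read count scaled to a fixed total per library. A gene that met this rule in only 1 of the groups is by that fact high there, so such genes are counted apart below.

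All TAM came from wild-type B6 mice whose tibia had been injected with Vk*MYC myeloma cells. The injected cells, from a plasma cell tumour that can be passed between mice, expressed GFP and had been purified by CD138. None of the mice was treated. Sorting kept cells high in F4/80 and low in CD11b and divided them by GFP, with 2 samples in contact and 2 not in contact that the labels number mouse 1 and mouse 2. Macrophages of naive mice, 2 samples, served as context and lent their spread to the test. The labels do not state the age of the animals or how many gave a sample, and p-values therefore reflect only how far these samples spread. In sorted bulk RNA, fewer cells of a type and less RNA per cell cannot be told apart.

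Resident macrophages of the bone marrow sit at the centre of erythroblastic islands, where they bind developing red cells through VCAM1, engulf expelled nuclei and aged blood cells, break down heme and return iron to the plasma. They are known for scavenger receptors such as CD163, MRC1 and the stabilins, for the receptors TIMD4 and MERTK that take up dying cells, and for the secreted proteins CD5L and ficolin A. The transcription factors MAF and SPIC act in this programme, and SPIC is induced by heme. Macrophages that arise from blood monocytes carry more CCR2 and CD11b.

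Replicates 1 and 2 are given in this order throughout. Total counts were 44491870 and 42134293 for TAM in contact, against 41357964 and 31047348 for TAM not in contact, and a count of 0 in these libraries allows up to 3 counts, or 0.0674 to 0.0966 CPM. Across genes, which are not independent replicates, log2 CPM correlated at 0.942 between the in contact libraries and at 0.842 between the not in contact libraries. Immunoglobulin genes, the main product of plasma cells, took 0.168% and 0.202% of counts in contact and 0.408% and 9.48% not in contact. The summed CPM of the plasma cell list was 1505 and 1469 in contact against 1682 and 9577. Not in contact replicate 2 therefore stands apart, and its part in the results was not tested beyond the values given without it. The Y-linked gene Ddx3y stood at 0 and 88.4 CPM in contact and at 0 and 0.26 CPM not in contact, and the X-inactivation RNA Xist at 17.5 and 0 against 20.3 and 40.4 CPM. In contact replicate 2 is the library with Y-linked counts and no Xist count, so the samples labelled mouse 2 do not match as 1 animal. The sort genes were present in every library. Adgre1, which encodes F4/80, had 519 and 550 CPM in contact and 1223 and 600 not in contact, and Csf1r, the receptor for the macrophage growth factor CSF1, had 2396 and 4368 against 3254 and 1389. Neither set of values kept the groups apart by 2-fold.

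The sort by GFP sets macrophages in contact with myeloma cells against those that were not. Most genes listed for resident marrow macrophages stood lower in TAM in contact, some by more than 16-fold in every pairing of libraries, while several genes of eosinophils, monocytes and neutrophils stood higher. At least 2-fold below both not in contact libraries in both in contact libraries, a description called separated here, were 404 of 9860 genes (4.1%), and 161 genes (1.63%) were separated in the higher direction. Of these, 171 of the lower and 29 of the higher genes had met the 5 CPM rule through their high group alone. Groups that merely did not overlap numbered 2126 genes lower (21.6%) and 2790 genes higher (28.3%). A gap of at least 16-fold between any library in contact and any library not in contact was seen for 29 lower genes (0.294%) and 5 higher genes (0.0507%). With 1 TAM library left out fewer pairings have to hold. The separated lower genes then numbered 814 without in contact replicate 1, 461 without in contact replicate 2, 1033 without not in contact replicate 1 and 613 without not in contact replicate 2, and the higher genes 495, 291, 824 and 541 in the same order. As shares of the 9860 genes these are 8.26%, 4.68%, 10.5% and 6.22% lower and 5.02%, 2.95%, 8.36% and 5.49% higher, and a list's counts without a library are to be read against them. The median log2 fold change of the 9860 genes was 0.08.

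At an adjusted p of 0.05, edgeR passed 0 of 15522 genes (0% in either direction), and the smallest adjusted p was 0.065, shared by 25 genes. At an unadjusted p under 0.05 there were 1553 lower genes (10%) and 1100 higher genes (7.09%). The same test on the 9860 genes alone passed 26 lower genes (0.264%) and 2 higher genes (0.0203%), with adjusted p-values of 0.0421 to 0.0439. A block for the mouse numbers of the labels gave edgeR calls of 52 lower genes (0.335%) and 7 higher genes (0.0451%), or 0.38% in either direction, and 25 of these 59 genes were among those 28. With bias-adjusted quasi-dispersions 21 lower genes (0.135%) and 1 higher gene (0.00644%) passed. DESeq2 called 1121 lower genes (6.86%) and 437 higher genes (2.67%), or 9.53% in all, and its calls held all 28. Without not in contact replicate 1, which leaves replicate 2 alone in its group with the spread of the other groups, edgeR called 1131 lower and 379 higher genes. Genes are described below by their values in each library. Since the test on all genes passed none, no gene is said to have changed. Where a gene is said to be among the 28, it passed on the 9860 genes only, and the adjusted p beside it is that of the test on all 15522 genes. Of the 26 lower genes among the 28, 19 met the 5 CPM rule through the not in contact libraries alone, 4 in 3 libraries and 3, Epb41l3, Fcna and Igf1, in all 4. Of the 2 higher genes, Arhgef37 met it in all 4 libraries and the other through the in contact libraries alone. For a gene that met the rule through its high group alone, a place among the 28 is no support for its direction. Neither is its place in a list's count of separated genes. Any gene below 5 CPM in both libraries of its low group is of this kind.

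**Figure D1:**
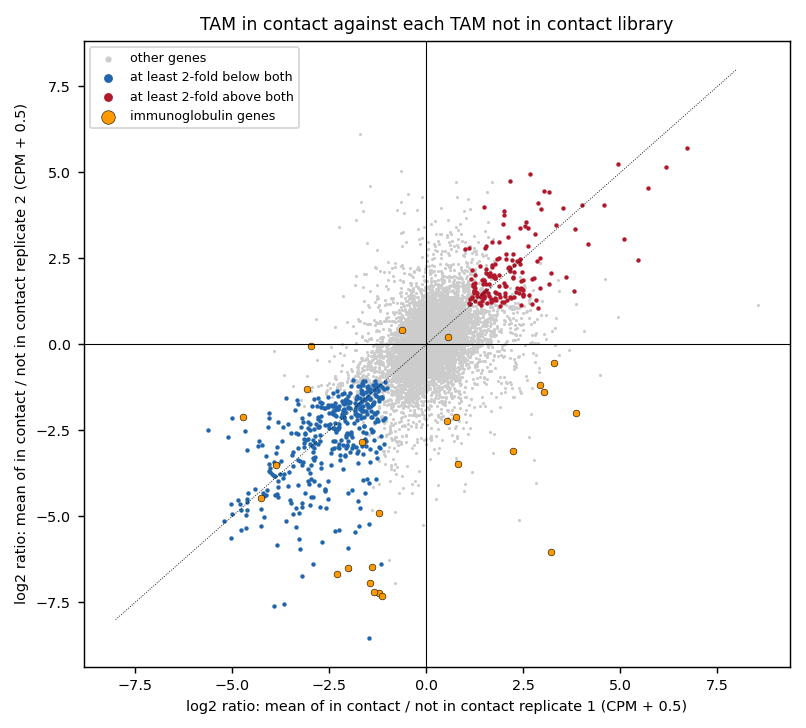
Each point is 1 of the 9860 genes. The axes give the log2 ratio of the mean CPM of the 2 TAM in contact libraries to not in contact replicate 1 (x) and to replicate 2 (y), with 0.5 CPM added; both ratios share their numerator. Blue points are the separated lower genes, red points the 161 separated higher genes and orange points immunoglobulin genes, many of which lie far below the diagonal, on the side of replicate 2 with its 9.48% immunoglobulin counts.

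Resident macrophage genes formed the list with the highest share of separated members after mitochondrial transcripts. Of its 23 members measured by the rule, 16 were separated lower and 0 higher, against 4.1% and 1.63% of all 9860 genes, and the median log2 fold change over its 25 tested members was -3.89. Without not in contact replicate 2, which carries the immunoglobulin counts, 21 members were separated lower and the median was -3.77, and without any other TAM library 16 to 18 were. DESeq2 called 18 members lower, against 6.86% of all genes. The list was chosen with earlier results of these samples known and is not independent evidence of its direction.

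Ficolin A is a secreted lectin of macrophages that binds sugars on microbes. Its gene Fcna (ENSMUSG00000026938.10, GRCm38 chromosome 2, 25624666 to 25628030, minus strand) had 17.3 and 19.3 CPM in contact, 609 and 924 not in contact and 2426 and 1176 in naive macrophages. The least gap between the TAM groups was 31.5-fold and the log2 fold change -5.36 ± 0.55 (SE, n = 2 per group as everywhere below, adjusted p = 0.065, among the 28). Stab2, a scavenger receptor for hyaluronan and for phosphatidylserine on dying cells, had 4.38 and 3.11 CPM in contact and 105 and 172 not in contact. Cd5l, which blunts cell death and lipid synthesis, had 6.70 and 3.82 CPM against 213 and 200, and both naive libraries exceeded these with 1435 and 614. Epb41l3, a linker of membrane and cytoskeleton, had 11.1 and 8.45 CPM against 288 and 256. Slc1a3, a glutamate transporter, had 7.24 and 3.35 CPM against 185 and 176. All 5 genes were among the 28, with least gaps of 23.0-fold or more, and the 2 not in contact libraries lay within 1.63-fold of each other, including replicate 2. Of them, Stab2 met the 5 CPM rule through the not in contact libraries alone.

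Other members were separated by smaller least gaps, from 2.23-fold for Lyve1 to 19.5-fold for Vcam1 among those named here, and were not among the 28. Vcam1, the adhesion molecule that holds erythroblasts on the macrophage, stood at 260 and 153 CPM in contact and 5063 and 5805 not in contact. The mannose receptor gene Mrc1 stood at 46.7 and 24.5 CPM against 635 and 753. Timd4, a phosphatidylserine receptor of long-lived resident macrophages, stood at 2.02 and 0.617 CPM against 17.5 and 30.4, and at 141 and 72.5 in naive macrophages. Its log2 fold change was -4.17 ± 0.67 (adjusted p = 0.119). In this gene both TAM groups lay below both naive libraries. Timd4 met the 5 CPM rule through the not in contact libraries alone. Cd163, the receptor for hemoglobin bound to haptoglobin, stood at 8.47 and 7.14 CPM in contact, but the not in contact libraries differed among themselves, at 79.2 and 516. Siglec1, a sialic acid-binding receptor, varied on the other side, with 45.3 and 8.31 CPM in contact and 116 and 106 not in contact. Vsig4, a complement receptor, and Lyve1, a hyaluronan receptor, were highest in not in contact replicate 1: Vsig4 stood at 15.4 and 2.97 CPM against 239 and 80.8, and Lyve1 at 24.1 and 12.03 against 228 and 53.7. Members that define macrophages in general were not separated. Cd68, a lysosomal membrane protein, stood at 579 and 780 CPM against 1663 and 671, and in contact replicate 2 exceeded not in contact replicate 2.

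**Figure D2:**
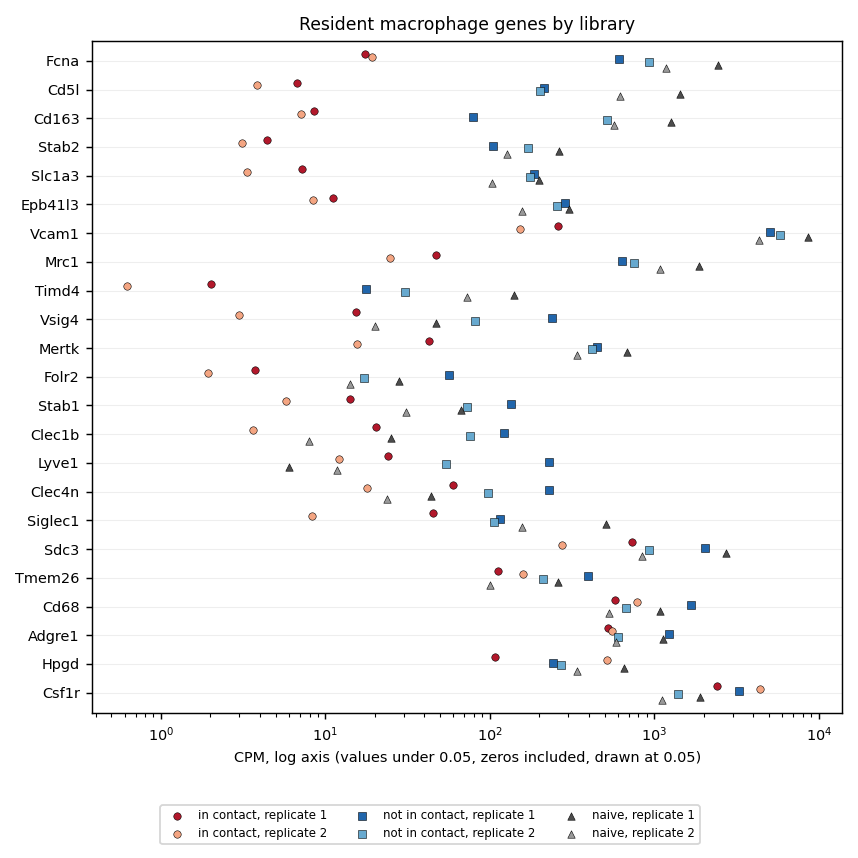
CPM on a log axis of the 23 resident macrophage genes in each library, ordered by log2 fold change; circles are TAM in contact, squares TAM not in contact and triangles naive macrophages. Circles lie left of all squares for most genes, as for Fcna at 17.3 and 19.3 CPM against 609 and 924, while for Csf1r at the bottom they overlap.

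Promoter letters are shown for Fcna and Timd4 because both belong to the resident macrophage group and hold, in the 250 bases before a RefSeq transcript start, the MAF half-site TGCTGAC, a motif of MAF family factors. The sequences are from RefSeq on GRCm38.p6, written 5′ to 3′ along the gene, with the match in capitals. The RefSeq start of Fcna lies inside the gene as annotated by GENCODE above, so its window overlaps that interval. In Timd4 it reads as its reverse complement GTCAGCA.
Fcna, chr2:25627975-25628224, minus strand: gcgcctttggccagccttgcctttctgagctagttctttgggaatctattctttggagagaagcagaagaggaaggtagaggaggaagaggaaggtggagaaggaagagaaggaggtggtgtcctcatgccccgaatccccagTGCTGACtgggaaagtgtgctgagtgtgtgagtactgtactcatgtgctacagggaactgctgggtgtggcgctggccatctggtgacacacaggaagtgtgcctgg
Timd4, chr11:46810549-46810798, plus strand: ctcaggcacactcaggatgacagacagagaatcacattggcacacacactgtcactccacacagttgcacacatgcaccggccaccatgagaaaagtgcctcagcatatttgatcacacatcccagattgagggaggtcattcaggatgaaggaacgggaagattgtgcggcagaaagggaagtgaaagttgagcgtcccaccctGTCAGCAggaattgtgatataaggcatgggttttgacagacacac
Promoter windows of 300 bases, 250 before and 50 after the start, were found for 303 of the 404 separated lower genes and for 124 of the 161 separated higher genes. On either strand, TGCTGAC was in 6.68% of the 404 windows of the lower genes, 3.41% of the 176 windows of the higher genes, 3.62% of windows of all genes meeting the rule and 4.67% of all 32851 windows. The PU.1 motif GAGGAAGT was in 2.72% and 4.55% of the windows of lower and higher genes, 3.52% of windows of genes meeting the rule and 3.20% of all windows. The GATA motif AGATAA was in 8.42% and 7.39%, in 6.13% of windows of genes meeting the rule and in 11.2% of all. The NF-kB motif was in 0 and 2 windows, 0.228% of windows of genes meeting the rule and 0.155% of all, and the C/EBP motif TTGCGCAA in 0 and 1, 0.317% and 0.183%. These shares are counts of letters in a window and carry no test.

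Genes outside the macrophage lists also had wide gaps. Paqr9, of the progestin and adiponectin receptor family (GRCm38 chromosome 9), had 5.51 and 3.32 CPM in contact and 159 and 122 not in contact (log2 fold change -4.99 ± 0.45, adjusted p = 0.065). The voltage-gated potassium channel gene Kcna2 had 0.922 and 1.19 CPM in contact and 42.2 and 64.7 not in contact, a least gap of 35.6-fold. Plpp3, a membrane phosphatase that inactivates lysophosphatidic acid, had 1.06 and 1.83 CPM against 48.0 and 60.04. Ubd, a ubiquitin-like protein, had 0.629 and 0.214 CPM against 22.2 and 21.7, a least gap of 34.5-fold. Dysf, which repairs the plasma membrane, had 1.64 and 0.783 CPM against 41.4 and 38.0, and Gfra2, a receptor for neurturin, 1.30 and 0.997 against 23.0 and 35.2. The sialyltransferase gene St6galnac2, Pxdc1, the phosphodiesterase gene Gdpd1, the potassium channel gene Kcnk13, the synaptic vesicle gene Syn1, the LIM protein gene Crip2 and the transporter gene Slc22a23 had least gaps between 10.1-fold for Kcnk13 and 37.1-fold for St6galnac2. Epor, the erythropoietin receptor, had 2.94 and 2.99 CPM in contact and 48.0 and 60.9 not in contact. These 14 genes were all among the 28. Kcnk13 and Paqr9 met the 5 CPM rule in 3 libraries, and the others through the not in contact libraries alone, where they are high. The globin gene Hbb-bs did not follow Epor, with 51.8 and 11.8 CPM in contact and 38.3 and 38.0 not in contact. Kits of this kind do not mark the strand. The spans of Fcna, Stab2, Epb41l3, Slc1a3, Pdgfc, Igf1, Dysf, Pxdc1, Syn1 and St6galnac2, introns included, each overlap another annotated gene. Whether exons overlap was not checked, so reads from a shared stretch could belong to the partner.

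Iron and heme handling is the main metabolic task of these macrophages. Of 20 measured genes, 6 were separated lower and 0 higher, against 4.1% and 1.63% of all genes. The median log2 fold change was -1.07 over 21 tested members. The median was -0.62 without not in contact replicate 1, and 12 members were separated lower without replicate 2. Slc40a1, ferroportin, the only known iron exporter, stood at 312 and 196 CPM in contact and 2974 and 3353 not in contact (-3.63 ± 0.60, adjusted p = 0.119). Hmox1, heme oxygenase, which opens the heme ring, stood at 147 and 162 CPM against 662 and 1464. Blvrb, a biliverdin reductase, stood at 26.7 and 26.4 CPM against 108 and 87.6. The heme transporter genes Slc48a1, with 134 and 125 CPM against 285 and 381, and Slc46a1, with 3.57 and 2.80 against 19.0 and 13.6, were also separated, as was the heme-binding protein gene Hebp1. Cp, ceruloplasmin, a ferroxidase that readies exported iron for transferrin, did not overlap but was 1.89-fold apart at the least, with 45.8 and 19.1 CPM in contact and 86.7 and 925 not in contact.

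Among 23 transcription factor genes of macrophages, 4 were separated lower and 0 higher, against 4.1% and 1.63% of all genes. The median log2 fold change over 24 tested was -0.15. The median ran from -1.06 without in contact replicate 2 to 0.05 without in contact replicate 1, and was -0.53 without not in contact replicate 1. Separated lower and higher were 7 and 4 genes without not in contact replicate 2, 6 and 3 without its replicate 1, and 7 and 1 without in contact replicate 1. Spic stood at 102 and 39.7 CPM in contact and 517 and 696 not in contact. Rxra, a partner of nuclear receptors, stood at 32.1 and 43.2 CPM against 148 and 122, and Mitf, a regulator of lysosomal genes in several cell types, at 5.03 and 4.18 against 13.8 and 12.05. Maf did not overlap but was under 2-fold apart in 1 pairing, at 30.3 and 7.88 CPM against 109 and 46.9.

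For uptake and digestion of dying cells, 6 of 20 efferocytosis genes and 6 of 32 lysosomal genes were separated lower, and 0 of either higher. Among all genes 4.1% were separated lower and 1.63% higher. Mertk, a kinase receptor that recognises dying cells through bridging proteins, stood at 42.7 and 15.6 CPM in contact and 446 and 419 not in contact. Gas6, one of these bridging proteins, stood at 8.56 and 7.07 CPM against 164 and 57.9, and the related receptor gene Axl at 1125 and 164 against 4013 and 2327. Stab1, a scavenger receptor, stood at 14.05 and 5.77 CPM against 135 and 72.7. In the lysosome list all 33 tested genes had negative log2 fold changes, with a median of -1.13, or -0.55 without not in contact replicate 1. The protease genes Ctsd and Ctsl stood at 1254 and 916 CPM against 8607 and 5407, and at 56.5 and 52.3 against 221 and 197. Dnase2a, which digests the DNA of engulfed nuclei, stood at 43.5 and 27.6 CPM against 155 and 110. Gla, which removes galactose from glycolipids, stood at 17.7 and 8.50 CPM against 55.3 and 81.3 and had a log2 fold change of -2.37 ± 0.40 (adjusted p = 0.125). Without not in contact replicate 1, 7 lysosomal genes were separated lower and 1 higher, without replicate 2, 19 lower and 0 higher, and without in contact replicate 1, 12 lower and 0 higher. Separated lower efferocytosis genes numbered 10 and 9 without in contact replicate 1 and without not in contact replicate 2. Abca1, the cholesterol exporter, stood at 39.9 and 41.2 CPM against 208 and 168. Of 22 measured lipid genes, 2 were separated, Abca1 and Gpnmb, both lower, against 4.1% of all genes. The number was 8 without not in contact replicate 2, and without in contact replicate 1 it was 4 lower and 1 higher.

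Of 13 measured genes of the growth and survival factor list, 6 were separated lower and 0 higher, against 4.1% and 1.63% of all genes. Without overlap were 7 lower and 2 higher genes of the 13, against 21.6% and 28.3% of all genes. Among the 22 tested genes of the list 16 had negative and 6 positive log2 fold changes. Pdgfc, a platelet-derived growth factor, had 3.44 and 3.63 CPM in contact and 110 and 113 not in contact (-4.96 ± 0.46, adjusted p = 0.065), and both pairs of replicates were nearly equal. Igf1, insulin-like growth factor 1, had 11.3 and 7.26 CPM against 234 and 195, and both genes were among the 28. Pdgfc met the 5 CPM rule through the not in contact libraries alone, and Igf1 in all 4 libraries. Vegfb stood at 6.52 and 3.63 CPM against 32.0 and 27.99, and Pdgfa at 1.03 and 0.973 against 13.1 and 6.67. For the bone morphogenetic protein gene Bmp2 and for Gdf15, a stress-induced member of the same family, the not in contact libraries themselves were far apart. Bmp2 stood at 1.96 and 0.475 CPM against 16.03 and 85.4, and Gdf15 at 4.72 and 7.22 against 81.1 and 1213. Like Pdgfc, the genes Pdgfa and Bmp2 met the 5 CPM rule through the not in contact libraries alone. Their separation is therefore no support for its direction. The list's median moved from -1.94 to -0.69 without not in contact replicate 2. Tnfsf14, a ligand of the tumour necrosis factor family, was separated higher and stood at 22.0 and 16.6 CPM in contact and 6.84 and 6.76 not in contact. Tnfsf13b, the B-cell and plasma cell survival factor BAFF, was not separated, at 56.6 and 62.0 CPM against 30.998 and 15.4.

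Of 13 cytokine genes 2 were separated lower, Il1a and Il18, and 1 higher, Tnfsf14, against 4.1% and 1.63% of all genes. Il18 stood at 23.2 and 9.90 CPM in contact and 76.8 and 68.6 not in contact, so its high values came from both libraries, whereas Il1a stood at 3.55 and 2.16 against 50.5 and 660. Among 16 chemokine genes 4 were separated lower and 1 higher, against the same shares of all genes. Pf4, platelet factor 4, which resident macrophages also express, stood at 8.97 and 8.78 CPM against 40.8 and 34.4. The monocyte attractant gene Ccl7 stood at 1.33 and 0.285 CPM against 5.25 and 9.40. The higher gene was Ccl9, with 239 and 383 CPM against 107 and 42.2, and Ccl6 of the same family did not overlap, with 560 and 1298 against 328 and 211. Separated lower were 6 cytokine and 7 chemokine genes without not in contact replicate 1, and without in contact replicate 1, 5 and 9. The median of the cytokine list was -1.41 and moved to -0.21 without not in contact replicate 2, and that of the chemokine list moved from -1.77 to -0.91.

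In the matrix list 5 of 17 genes were separated lower and 0 higher, against 4.1% and 1.63% of all genes. Without not in contact replicate 2 the numbers for this list were 6 and 5. Its median log2 fold change was -1.56, or -0.82 without that library and -2.81 without in contact replicate 1, and its summed CPM overlapped, at 5807 and 4479 in contact and 5357 and 5852 not in contact. Mmp2, the gelatinase A gene, was among the 28, with 4.76 and 3.89 CPM in contact and 41.9 and 28.6 not in contact (-3.02 ± 0.34, adjusted p = 0.0679), and naive macrophages were near TAM in contact, at 5.08 and 5.30. Mxra8, an adhesion protein of matrix-producing cells, was also among the 28, with 1.259 and 1.02 CPM in contact, 14.3 and 17.1 not in contact and 0.597 and 0.900 in naive macrophages. Mmp2 and Mxra8 both met the 5 CPM rule through the not in contact libraries alone. Timp3, an inhibitor of metalloproteases, stood at 1.71 and 1.04 CPM against 10.4 and 29.1, and Sparc, a matrix glycoprotein, at 16.7 and 7.95 against 181 and 61.2. The markers Bglap, of osteoblasts, and Pdgfra, of stromal cells, were at or below 3 counts in every TAM library, while the summed CPM of the stromal list was 73.8 and 74.2 in contact and 74.2 and 246 not in contact. Of 17 complement genes 4 were separated lower and 1, Itgam, higher, against the same shares of all genes. Separated lower were 9 without not in contact replicate 2 and 10 without in contact replicate 1, and the median of -2.15 was -1.39 without not in contact replicate 1. Cfp, properdin, stood at 279 and 147 CPM against 1521 and 1056, and C1ra at 4.05 and 1.59 against 11.03 and 10.9. The C1q genes did not reach 2-fold in each pairing: C1qa stood at 459 and 61.6 CPM against 2295 and 896.

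Enzymes and receptors of lipid mediators went both ways. Separated lower were Ptgs1, cyclooxygenase 1, at 98.7 and 52.5 CPM in contact and 366 and 281 not in contact, the thromboxane synthase gene Tbxas1, at 63.7 and 39.3 against 251 and 280, the prostaglandin D synthase gene Hpgds, at 46.5 and 11.2 against 253 and 176, and the phospholipase gene Pla2g15. Separated higher were Alox5ap, the activating protein of 5-lipoxygenase, at 133 and 172 CPM against 49.4 and 37.8, the prostacyclin receptor gene Ptgir, at 57.5 and 46.9 against 16.4 and 12.1, and Alox15. Ltb4r1, the high-affinity leukotriene B4 receptor, stood at 246 and 239 CPM in contact and 42.9 and 65.7 not in contact (2.18 ± 0.33, adjusted p = 0.112), and naive macrophages at 241 and 337. In this pathway 4 of 19 measured genes were separated lower and 3 higher, against 4.1% and 1.63% of all genes. Without not in contact replicate 2 the numbers were 4 and 5.

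Adhesion receptors also split. Of 24 genes 2 were separated lower and 3 higher, against 4.1% and 1.63% of all genes. The higher genes numbered 6 without either not in contact library and without in contact replicate 1. The integrin subunit gene Itgad stood at 65.2 and 11.5 CPM in contact and 492 and 526 not in contact. Itgam, which encodes CD11b and was used in the sort, stood at 215 and 232 CPM in contact, 73.0 and 84.0 not in contact and 245 and 331 in naive macrophages (1.53 ± 0.28, adjusted p = 0.135). Itgb7, a partner of the α4 integrin, stood at 235 and 556 CPM against 85.9 and 72.4, and its partner gene Itga4 did not overlap, with 184 and 296 against 101 and 55.2. Emb, embigin, stood at 269 and 369 CPM against 70.7 and 121.

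Transcripts of the mitochondrial genome were lower in each measured case. Of 7 measured genes, 5 were separated lower and the other 2 did not overlap. Among all genes 4.1% were separated lower and 21.6% did not overlap in that direction. The cytochrome b gene mt-Cytb stood at 357 and 462 CPM in contact and 1088 and 2378 not in contact, and mt-Co1, of cytochrome oxidase, at 348 and 337 against 764 and 2174. The share of counts from the mitochondrial genome was 0.142% and 0.180% in contact and 0.353% and 0.876% not in contact. Another 5 mitochondrial genes had at most 3 counts in every TAM library, mt-Co2, mt-Co3, mt-Atp6, mt-Atp8 and mt-Nd4l, so these shares are partial.

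Eosinophil genes held the highest share of separated genes in the other direction. Of 13 measured, 6 were separated higher in TAM in contact and 1 lower, against 1.63% and 4.1% of all genes. The median log2 fold change over 14 tested was 1.93. It was 2.84 without not in contact replicate 2, when 9 were separated higher. Epx, the eosinophil peroxidase gene (ENSMUSG00000052234.2, GRCm38 chromosome 11, 87864000 to 87875536, minus strand), had 213 and 245 CPM in contact and 1.69 and 3.87 not in contact, a least gap of 55.2-fold. Alox15, 12/15-lipoxygenase, which oxidises arachidonic and linoleic acid in eosinophils and some macrophages, was among the 28, with 27.1 and 17.1 CPM in contact and 0.242 and 0.0966 not in contact, which are 10 and 3 counts (6.96 ± 0.78, adjusted p = 0.065). It met the 5 CPM rule through the in contact libraries alone. Prg2, major basic protein, stood at 587 and 877 CPM against 13.5 and 31.02, and its relative Prg3 at 28.5 and 38.3 against 3.68 and 1.03. The eosinophil ribonuclease genes Ear1 and Ear6 stood at 6.32 and 11.3 and at 8.59 and 14.3 CPM in contact, with at most 7 counts in a library not in contact. They belong to a family of near-identical genes, so their reads may be split among copies. Like Alox15, the genes Epx, Prg3, Ear1 and Ear6 met the 5 CPM rule through the in contact libraries alone. Their separation is therefore no support for its direction. Of the 6 genes separated higher, only Prg2 met the rule in both groups. Ccr3, the eotaxin receptor of eosinophils, went the other way, at 14.4 and 21.7 CPM in contact, 169 and 488 not in contact and 1083 and 453 in naive macrophages. In naive macrophages Epx stood at 226 and 723 CPM and Prg2 at 336 and 991, so for these genes TAM not in contact were the low group.

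Lists of other granulocytes and of monocytes had the same sign with smaller gaps. Their counts of genes separated higher are to be read against 1.63% of all genes. Of 18 neutrophil genes 2 were separated higher, 12 did not overlap in this direction against 28.3% of all genes, and all had positive log2 fold changes, with a median of 1.36. The median was 2.34 and 12 were separated without not in contact replicate 2, and without in contact replicate 2, 9 were. The summed CPM of the neutrophil list was 60634 and 34584 in contact, 11144 and 22597 not in contact, and 59981 and 94312 in naive macrophages, and its part in other results was not tested. Camp, an antimicrobial peptide of neutrophil granules, stood at 2625 and 1735 CPM against 388 and 796, and S100a8, a calcium-binding alarmin, at 3897 and 2516 against 517 and 1191. In the basophil and mast cell list, 2 of 10 genes were separated higher, the carboxypeptidase gene Cpa3 with 47.4 and 37.9 CPM against 3.05 and 10.7 and the basophil protease gene Mcpt8 with 66.0 and 34.3 against 0.653 and 8.76. Without not in contact replicate 2, 7 of that list were, and without in contact replicate 2, 6, while the mast cell proteases Cma1 and Tpsb2 were at or below 3 counts in every TAM library. Prss34, another basophil protease, had 264 and 110 CPM in contact but 0 and 84.1 not in contact. Of 12 classical monocyte genes 3 were separated higher, and 7 without either replicate 2. Ccr2, the receptor that draws monocytes from the marrow, stood at 925 and 618 CPM in contact, 191 and 52.4 not in contact and 79.7 and 110 in naive macrophages. Plac8 stood at 773 and 481 CPM against 160 and 54.9, and Hp, haptoglobin, at 976 and 1004 against 177 and 330. Ly6c2, which encodes a surface antigen of these monocytes, was not separated, with 494 and 192 CPM against 139 and 328. Of 13 nonclassical monocyte genes 2 were separated higher, and 9 without in contact replicate 1, 5 without not in contact replicate 1 and 6 without its replicate 2. The median of 1.57 was 0.64 without in contact replicate 2. The separated genes were Ace, angiotensin-converting enzyme, with 317 and 1047 CPM against 75.4 and 31.2, and Pglyrp1, a peptidoglycan-binding protein, with 328 and 439 against 57.3 and 101.

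**Figure D3:**
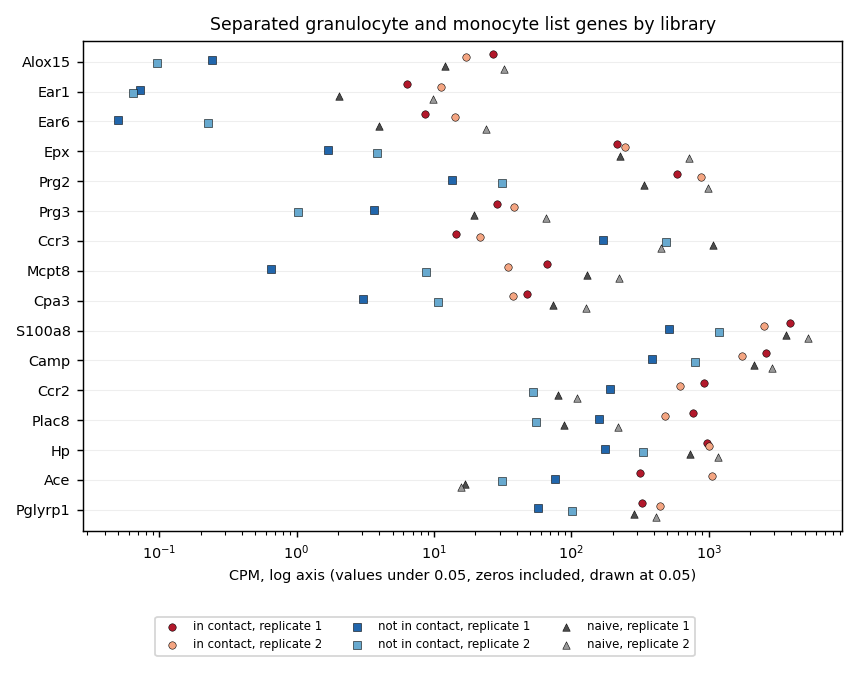
CPM on a log axis, by library, of the 16 genes of the eosinophil, basophil, neutrophil and monocyte lists that were separated by at least 2-fold. Ccr3 is the only one of them with the in contact libraries (circles) to the left; Ccr2 and Ace are high in contact and low in naive macrophages (triangles), whereas Epx is high in both.

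Further genes, most of them outside the lists, stood higher in TAM in contact. Arhgef37, which belongs to a family of guanine nucleotide exchange factors, had 36.3 and 47.0 CPM in contact, 6.33 and 5.31 not in contact and 2.01 and 2.39 in naive macrophages (2.86 ± 0.32, adjusted p = 0.065). It was 1 of the 2 higher genes among the 28, the other being Alox15. Gpr141, an orphan receptor, stood at 285 and 314 CPM against 53.8 and 68.7 (2.31 ± 0.33, adjusted p = 0.102). Cd209a, a lectin of monocyte-derived dendritic cells, stood at 40.1 and 39.8 CPM against 5.03 and 1.84, and at 5.03 and 7.68 in naive macrophages. In the dendritic cell list, which holds Cd209a, 1 of 14 measured genes was separated higher and 1 lower, against 1.63% and 4.1% of all genes. That list had 8 negative and 7 positive log2 fold changes. Stag3, a cohesin subunit of meiosis, stood at 5.37 and 5.25 CPM against 0.339 and 0.129, Foxred2 at 33.0 and 24.3 against 6.70 and 8.54, and the scaffold gene Card10 at 23.98 and 26.8 against 3.31 and 6.25. The calcium-binding protein gene S100a11 stood at 146 and 114 CPM against 37.5 and 44.7. The peroxiredoxin gene Prdx5, at 590 and 530 CPM against 201 and 220, was the only separated gene of 17 in the oxidative burst list (3 lower and 5 higher without not in contact replicate 1, 4 higher without replicate 2 and 3 without in contact replicate 1), though the oxidase subunit gene Cybb did not overlap, at 3395 and 4259 against 1854 and 1310. Galnt9, a glycosyltransferase, stood at 9.37 and 28.8 CPM against 1.45 and 1.256.

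**Figure D4:**
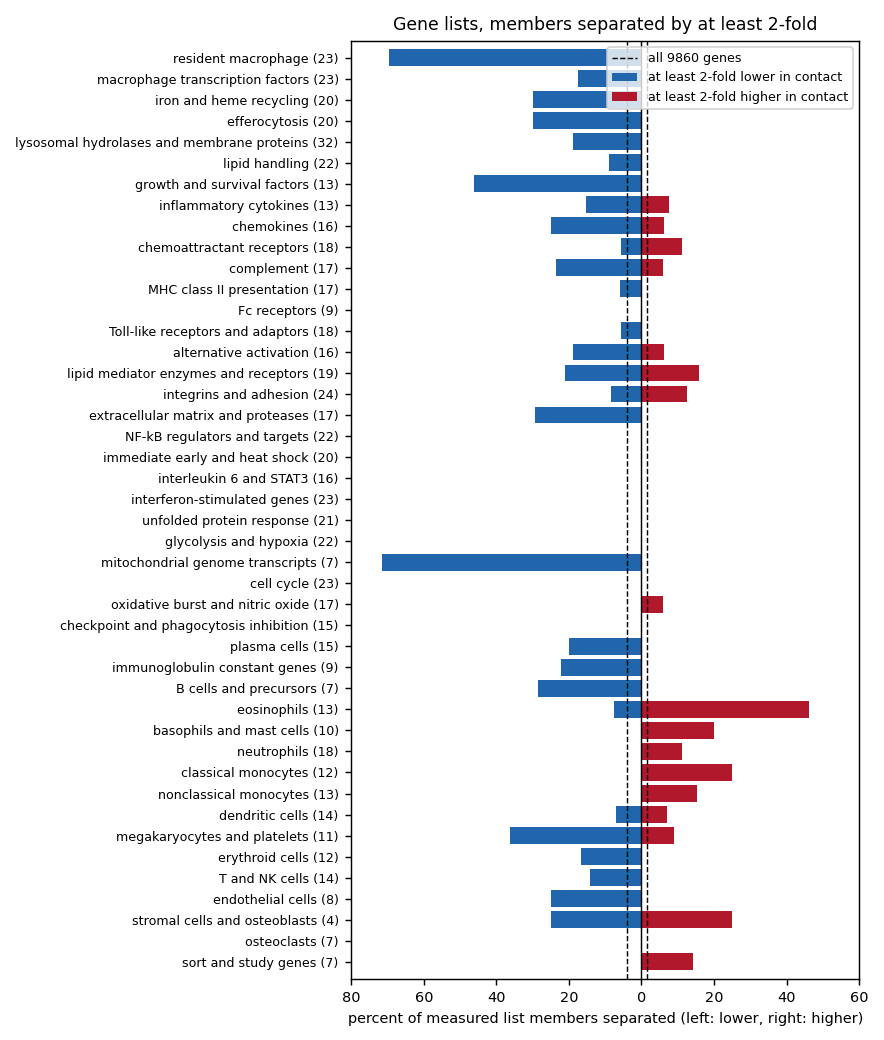
Percent of the measured members of each gene list that were separated lower (blue, to the left) or higher (red, to the right) in TAM in contact, with the number measured in brackets. Dashed lines mark the shares among all 9860 genes, 4.1% lower and 1.63% higher; resident macrophage genes reach 16 of 23 lower and eosinophil genes 6 of 13 higher.

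Markers of the other marrow cells described here were separated lower in TAM in contact more often than higher. Among all genes, too, lower was the more frequent direction, with 4.1% separated lower and 1.63% higher. Negative and positive log2 fold changes numbered 17 and 1 in the plasma cell list and 15 and 2 in the megakaryocyte list. They numbered 10 and 8 in the B-cell list and 7 and 12 in the T-cell list. In the B-cell list Bank1 and Blnk, adaptors of B-cell receptor signalling, were separated lower, at 32.0 and 27.2 CPM against 129 and 129, and at 24.7 and 9.40 against 140 and 233, while Cd79a, a subunit of that receptor, was not, with 15.2 and 15.7 against 6.21 and 15.98. Of 15 plasma cell genes 3 were separated lower, Mzb1, Derl3 and Pou2af1, and without not in contact replicate 1 the number was 12, and without in contact replicate 1 it was 7. Mzb1 stood at 4.43 and 3.56 CPM in contact and 21.6 and 10.98 not in contact. Of 9 immunoglobulin constant genes 2 were separated lower: Igkc stood at 223 and 298 CPM against 1063 and 23693, and Ighg2b at 290 and 397 against 806 and 51674. Reads of immunoglobulin genes may be shared among near-identical segments. Of the 9, 7 were separated lower without not in contact replicate 1. The median of that list moved from -4.08 to -0.10 without not in contact replicate 2. In the megakaryocyte list 4 of 11 genes were separated lower, among them Pf4 and the platelet chemokine gene Ppbp, with 0.382 and 0.119 CPM in contact and 10.2 and 42.5 not in contact, and 1 was higher; 8 were lower without not in contact replicate 1. The summed CPM of this list was 387 and 254 in contact and 394 and 1819 not in contact. Of the T-cell list Cd4, which mouse macrophages can express, was lower at 37.2 and 4.98 CPM against 280 and 114. The stem cell factor gene Kitl stood at 0.966 and 0.309 CPM against 13.5 and 39.3, and Pdgfrb, a receptor of mural cells, at 9.93 and 17.6 against 2.13 and 3.51. Siglech, a receptor of plasmacytoid dendritic cells, stood at 3.17 and 2.54 CPM against 12.3 and 19.3.

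Single libraries held genes of their own. At least 4-fold above each of the other 3 TAM libraries were 143 genes in not in contact replicate 2 (1.45%), 11 of them immunoglobulin genes, 14 genes in not in contact replicate 1 (0.142%), 12 in in contact replicate 2 (0.122%) and 1 in in contact replicate 1 (0.0101%). In not in contact replicate 2 the highest ratio was that of the cytochrome gene Cyp2b10, at 1131 CPM against 7.91 in replicate 1, followed by the epithelial adhesion gene Epcam at 405 against 5.34. Sdc1, which encodes the plasma cell marker CD138, stood at 417 CPM there and 9.99 in replicate 1. The orphan nuclear receptor gene Nr4a2 had 341 CPM against 8.70, the cyclooxygenase 2 gene Ptgs2 268 against 0.991 and Pls1, an actin-bundling protein, 212 against 8.73. The mouse gene Myc had 2801 CPM there, 165 in replicate 1 and 123 and 66.4 in contact. Tnf had 909 CPM there and 23.7 in replicate 1, below both libraries in contact at 27.0 and 66.4. For Tnf and Ptgs2 the order of the groups thus depended on this library alone.

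Of the 14 genes of not in contact replicate 1, 2 were immunoglobulin genes. Pla2g2d, a secreted phospholipase, had 78.6 CPM there against 8.54 in replicate 2 and 2.02 and 0.214 in contact. The collagenase gene Mmp13 had 107 CPM against 19.6, and the cathepsin K gene Ctsk 47.8 against 3.16. Ccl8, a monocyte chemokine, had 54.7 CPM against 7.09, and Pmepa1, an inhibitor of TGF-beta signalling, 119 against 17.04. In contact replicate 2 was highest for S1pr5, a sphingosine 1-phosphate receptor of patrolling monocytes and natural killer cells, at 764 CPM against 71.5 in replicate 1 and 5.32 and 11.2 not in contact. It was also highest for the adhesion gene L1cam (245 against 34.2 CPM in replicate 1), the enolase gene Eno3 (602 against 93.3), Cyp2ab1 (91.8 against 13.2), Mdm1 (223 against 39.9) and thrombomodulin, Thbd (205 against 40.1). The summed CPM of the nonclassical monocyte list was 3483 and 11159 in contact and 2152 and 3996 not in contact, highest in the same library, while that of T and natural killer cells was 472 and 161 against 560 and 210. The 1 gene of in contact replicate 1 was Aplnr, the apelin receptor, at 32.1 CPM against 2.82 in replicate 2.

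**Figure D5:**
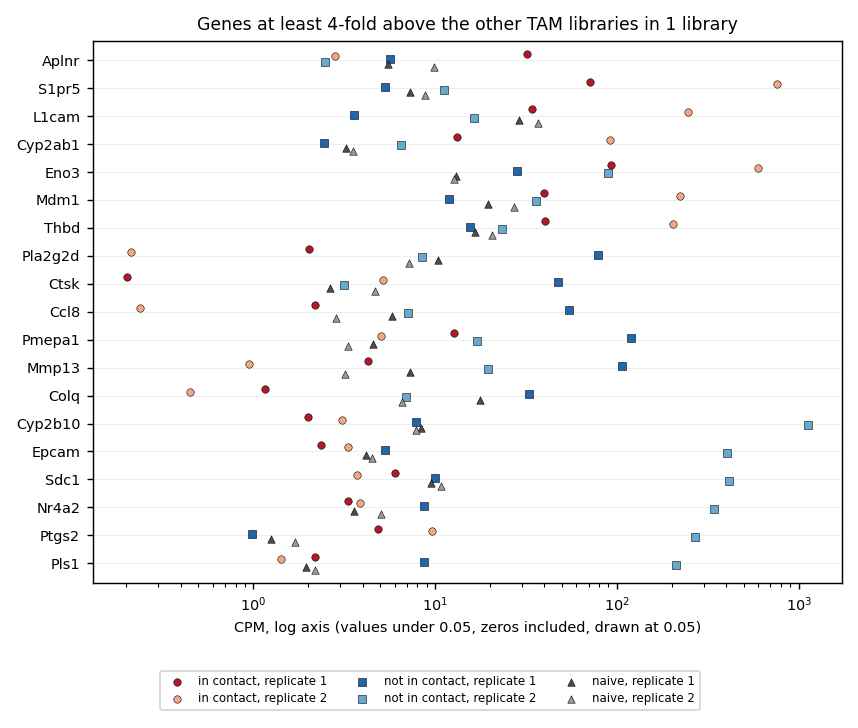
CPM on a log axis of genes at least 4-fold above the other 3 TAM libraries in 1 library, up to 6 for each, immunoglobulin genes left out. Light squares, not in contact replicate 2, stand alone to the right from Cyp2b10 at 1131 CPM downwards, dark squares from Pla2g2d to Colq and light circles from S1pr5 to Thbd.

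Several programmes held no separated gene. Separated genes were few among all genes, so a list of this size can hold none without differing from them. None of 22 NF-kB genes, 20 immediate early and heat shock genes, 16 interleukin 6 and STAT3 genes, 23 interferon-stimulated genes, 21 genes of the unfolded protein response, 22 of glycolysis and hypoxia, 23 of the cell cycle, 15 of immune checkpoints and 9 Fc receptors was separated in either direction, where 4.1% and 1.63% of all genes were. With 1 library left out this was not so for all: without not in contact replicate 1, 10 immediate early and heat shock genes and 5 NF-kB genes were separated lower, and without in contact replicate 1, 9 interferon-stimulated genes were. With all 4 libraries no interferon-stimulated gene lay without overlap, and Isg15 stood at 127 and 12.98 CPM in contact and 93.1 and 181 not in contact. In the glycolysis list 13 of 22 genes did not overlap and were higher, against 28.3% of all genes, with small gaps, such as the pyruvate kinase gene Pkm at 1084 and 1023 CPM against 629 and 618. In the unfolded protein response list 13 of 21 did not overlap and were lower, against 21.6% of all genes, as for the chaperone gene Hsp90b1 at 535 and 396 CPM against 954 and 1460, and without not in contact replicate 1, 12 of the 21 were separated lower, against 10.5% of all genes then; without in contact replicate 1, 4 were. Of the 22 tested genes of the unfolded protein response list, DESeq2 called 8 lower and 0 higher, against 6.86% and 2.67% of all genes. The median of the immediate early and heat shock list was -0.90, and 1.37 without not in contact replicate 2. The NF-kB regulator gene Tnfaip3 stood at 125 and 131 CPM in contact and 149 and 2167 not in contact. Of 17 genes of antigen presentation 1 was separated, the costimulator gene Cd86, at 107 and 46.5 CPM against 393 and 252.

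Naive macrophages placed the separated genes. Of the 404 lower genes, both naive libraries were at least 2-fold above both in contact libraries for 230, as for Fcna, Cd5l and Slc40a1, and both not in contact libraries were at least 2-fold above both naive libraries for 52, as for Mmp2 and Mxra8. Of the 161 higher genes, both in contact libraries were at least 2-fold above both naive libraries for 35, as for Arhgef37, Ccr2, Cd209a and Ace, and both naive libraries were at least 2-fold above both not in contact libraries for 68, as for Epx, Prg2 and Ltb4r1. These counts share the TAM libraries with the comparison above and are given as values only.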

How the data were processed

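RNA of 4 TAM and 2 naive macrophage samples was sequenced with the SMART-Seq v4 kit, which copies whole transcripts without marking their strand, per the labels' protocols. The authors deposited whole-number read counts per gene in 1 table. STAR, featureCounts, DESeq2 1.26, mm10 and GRCm38 appear in the submitters' processing notes without a role. Neither the annotation release nor the strand setting is given in the sources used here. Of 47643 gene identifiers 47224 matched GENCODE M21, from which coordinates on GRCm38 were taken, counted from 1, and 0 columns were left without a sample. Plasma cell samples were not analysed here.

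CPM used total counts. The test was edgeR 4.0.16's quasi-likelihood test (R 4.3.3, TMM scaling, genes kept by filterByExpr with minimum count 10 and minimum total 15) on the 6 macrophage libraries with 3 residual degrees of freedom, with Benjamini-Hochberg adjustment over 15522 genes and a threshold of 0.05. With 2 against 2, a single value's exact permutation test cannot go below p = 0.333 and was not used. DESeq2 1.42.0 and limma 3.58.1 were alternatives. The tests were also run on simulated counts with a common spread for all genes and no deviating library. These data differ in that, so the simulation cannot tell which number of calls is right here. Log2 fold changes are edgeR's and carry standard errors. Separated means every library of 1 group at least 2-fold beyond every library of the other.

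The text names the sort genes, the 12 genes per direction with the smallest p and the 12 with the largest least gap (0.1 CPM added) among genes without overlap and with assigned symbols, members of each list by smallest p and those at or near 0, up to 6 genes per library at least 4-fold above the others, and called genes. Genes named to contrast with these were chosen after their values were seen. Some genes that this rule names are not reported here. The members and the 45 lists (768 genes, 766 found) were chosen with earlier results of these data known. The labels give both TAM groups the same mouse numbers. Replicate differences of the 2 groups correlated at 0.211 across genes, and sex-linked genes go against 1 animal for mouse 2, so the pairing is doubtful and the block is an alternative. Promoters were from RefSeq. Shares and limits from counts cover counting error only, since reads carry no molecular identifiers.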

Additional observations from a re-analysis of the deposited data

How the results depend on the processing

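The number of genes past the adjusted p was 0 in edgeR and also 0 with limma-voom (smallest adjusted p 0.104), RLE size factors, the 4 TAM libraries only or no immunoglobulin genes. It was 1558 with DESeq2, 1871 with no filter on low counts, 28 on genes with at least 5 CPM in 2 of 4 libraries, 22 with bias-adjusted quasi-dispersions and 59 with the replicate block, the pairing by mouse number. With 1 library left out it ranged from 0 to 1510, the latter without TAM not in contact replicate 1; the cause was not tested. The 28 genes had adjusted p-values of 0.065 to 0.0788 in the test on all genes and 9.65e-26 to 0.79 over the alternatives. The separated counts, 404 lower and 161 higher, were 413 and 161 with TMM sizes and 437 and 135 with totals that left out immunoglobulin genes. They were 680 and 253 at a minimum of 1 CPM, 229 and 127 at 20 CPM, 162 and 18 at a least fold of 4, and 2126 and 2790 with no overlap alone. Leaving out 1 TAM library gave 461 to 1033 lower and 291 to 824 higher genes, since fewer pairings had to hold. All 124 named separated genes kept their direction under every alternative that could be fitted. They were chosen for a gap of at least 2-fold in every pairing of libraries. That choice largely fixes this outcome, so it is no support for their direction. Without immunoglobulin genes, 2 of them were not tested. Of the 124, 29 passed with the replicate block, 122 in DESeq2, 25 on the 9860 genes and 75 without not in contact replicate 1. Counts of separated list members and list medians without single libraries were added after seeing the data. With 2 libraries per group, values under about 0.1 CPM rest on 3 or fewer counts.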
